A study of Mus musculus with 6 samples.

Results

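The transcripts described here are the predicted genes and RIKEN-named genes among the transcripts listed as differentially expressed in *Smarcad1*-KO small intestinal organoids. They were picked by their names, as each row of the deposited table whose symbol is Gm followed only by digits or ends in Rik. This rule found 92 of 1420 rows (6.48%), 52 with a Gm symbol and 40 with a Rik symbol. The study compared gene expression in organoids, epithelial structures grown in gel from small intestinal crypts, to follow the effect of Smarcad1, a chromatin remodelling ATPase, away from microbiota and immune cells. Poly(A)-selected mRNA of 3 wild-type (WT) and 3 knockout (KO) organoid samples from C57BL/6 mice was sequenced. About 600 organoids per condition were collected 5 days after passage and reseeding. The KO allele lacks a group of *Smarcad1* exons that had been flanked by loxP sites. The genotype label gives Vil-Cre, active in the intestinal epithelium, as the driver of the deletion, while the growth protocol and the methods of the study give ZP3-cre, active in the oocyte, with control littermates, so the driver in these samples is uncertain. No source used here says whether replicates of a group came from separate mice, and p-values then measure only the spread between these samples, which may be technical.

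Symbols of the form Gm and a number are placeholders that the mouse genome nomenclature gives to predicted gene models, and symbols ending in Rik were given to genes found as full-length cDNA clones by the RIKEN institute. Both kinds are kept until a function or a family is known, so they hold long non-coding RNAs, transcripts antisense to known genes, copies of known genes such as processed pseudogenes, proteins with no assigned function, and readthrough transcripts that join exons of neighbouring genes. Long non-coding RNAs are as a class less abundant than messenger RNAs, and some of them act in the regulation of chromatin and of nearby genes.

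Values are RPM (reads per 1000000 reads of the library), not divided by transcript length. The libraries held between 1.24e+07 and 1.57e+07 reads, and the listed rows took between 27.5% and 30.6% of them. At this depth 3 reads, taken here as the floor of detection, equal between 0.192 and 0.242 RPM. *Smarcad1* itself was measured at 105.5, 94.7 and 96.3 RPM in WT and at 21.7, 21.3 and 24.03 RPM in KO, so 22.6% of the WT mean remained (log2 change -2.14, SE 0.10) and the samples went with their labels. The 6 Paneth cell markers sought were all present and raised in KO (summed level 6260 to 6900 RPM in WT and 14400 to 18600 RPM in KO) and all 4 listed of 7 enterocyte markers were lower (7420 to 9030 RPM against 4140 to 4420 RPM). Of the Paneth markers, Lyz1, Ang4, Itln1, Defa22 and Defa26 are genes that the study itself named as changed in KO. That these are listed is therefore no separate finding. Of the other types, the 2 listed of 6 goblet markers, Muc2 and Tff3, were higher (summed level 1230 to 1340 RPM, then 1880 to 3300 RPM). Higher too was Sct, the 1 listed of 6 enteroendocrine markers (12.7 to 18 RPM, then 21.7 to 49.8 RPM). Dclk1, 1 of 3 tuft markers (15.5 to 26.9 RPM, then 10.9 to 12.2 RPM), and Itgam, 1 of 5 immune markers (8.55 to 10.7 RPM, then 2.82 to 5.83 RPM), were lower. None of the 4 stem cell markers sought is listed. In such bulk samples fewer cells of a type and less RNA per cell cannot be told apart, and the part of cell type shares in the changes below was not tested. Of 10 general epithelial markers only Krt18 is in the table, and the levels of the others were not analysed here.

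Of the 92 Gm and Rik transcripts, 66 were higher and 26 lower in KO (71.7% higher). Over all 1420 rows 747 were higher (52.6%). The Gm and Rik symbols hardly differed in this respect, with 37 of 52 and 29 of 40 higher. By limma on log2(RPM + 0.1), with p-values adjusted over all 1420 rows, all 66 rises and all 26 falls passed 0.05, but so did 52.5% of all rows as higher and 47.4% as lower, since the authors had listed only rows that passed their own test on these same libraries. The calls therefore describe the list and are no separate evidence. The KO values lay all above the WT values for 64 of the 92 and all below for 26, against 51.3% and 47.2% of all rows. The exceptions were Gm20503 and Gm45753, whose KO replicate 3 fell within the range of the WT values (29.9 RPM against 20.6 to 30.2 RPM in WT for Gm20503, and 44 RPM against 31.5 to 44.4 RPM for Gm45753). With 3 against 3 libraries an exact permutation test cannot go below p = 0.1, two-sided, and each of the 26 transcripts named by the rule for named genes reached that value.

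Large changes were more frequent among them than in the whole list. A log2 change of at least 1 was called by limma for 37 of the 92 as a rise and for 12 as a fall, while the background was 19.0% of all rows higher and 8.10% lower. Their median log2 change was 0.77, beside 0.38 for all rows, and the median size without its sign was 1.10 against 0.64. These transcripts were also present at a lower level. Their median of the mean RPM over the 6 libraries was 8.98, against 63.6 for all rows, and 18 of them (19.6%) had a WT mean under 1 RPM, against 60 of all 1420 rows. Per kilobase of annotated exon the median WT level was 4.56 RPM for the 90 with annotated exons and 15.0 RPM for all rows.

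The rows were also split by level, by the mean over all 6 libraries, which the change itself helps to set. Below the 25th percentile of the mean over all rows (18.5 RPM), 35 of 59 Gm and Rik transcripts rose by at least 1 (59.3%), beside 166 of 296 other rows (56.1%), and 44 of 59 were higher (74.6%) beside 228 of 296 (77.03%). At or above this level 2 of 33 rose by at least 1 (6.06%), Gm43305 and Gm42047, beside 67 of 1032 other rows (6.49%), and Gm43305, with a WT mean of 5.50 RPM, is in this group only through its KO libraries. By direction, 22 of these 33 were higher (66.7%) beside 453 of 1032 (43.9%). The way of splitting helps to set this share too. With WT means of 16.6, 18.1, 17.0 and 15.0 RPM, 2010001K21Rik, 2610035D17Rik, 2810402E24Rik and Gm44985 rose into this group through KO. With WT means of 20.4 and 19.1 RPM, 1110008P14Rik and Gm11695 fell out of it through KO. A split by WT level was not made. This is a description of the listed rows, with no test.

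**Figure D1:**
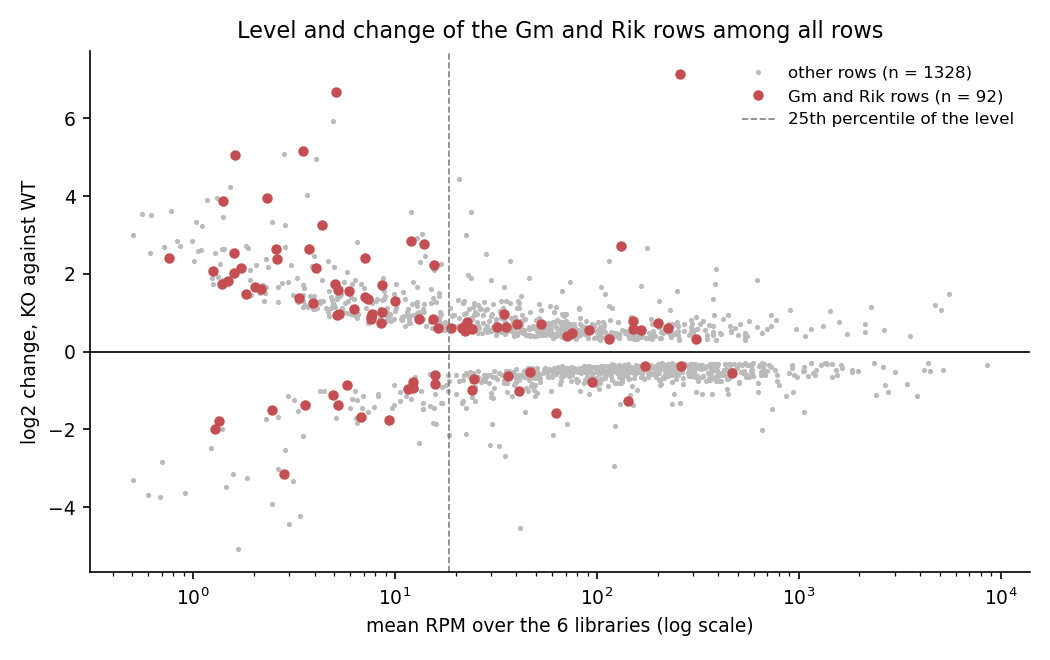
Mean RPM over the 6 libraries (x axis, log scale) and log2 change in KO against WT (y axis) of the 92 Gm and Rik rows (red) and the 1328 other rows (grey), with the 25th percentile of the mean as a dashed line. Most red points lie left of the line, and Gm43305 stands apart at the upper right with a mean RPM of 258 and a log2 change of 7.13.

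In summed level the 92 transcripts took 3486, 3463 and 3523 RPM in the WT libraries and 4457, 4526 and 4523 RPM in the KO libraries. The KO sum was thus 1.29 times the WT sum, and the groups did not overlap. On average 1243 RPM of the WT sum and 1166 RPM of the KO sum came from 9 readthrough models. These share exonic bases with other genes on the same strand, so this part of the sums may hold reads of those genes. Without Gm43305 and Gm42047 the sums were 3439, 3420 and 3496 RPM against 3894, 3764 and 3624 RPM, a ratio of 1.09. The difference between the group means was 1010 RPM with all 92 and 310 RPM without this pair.

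**Figure D2:**
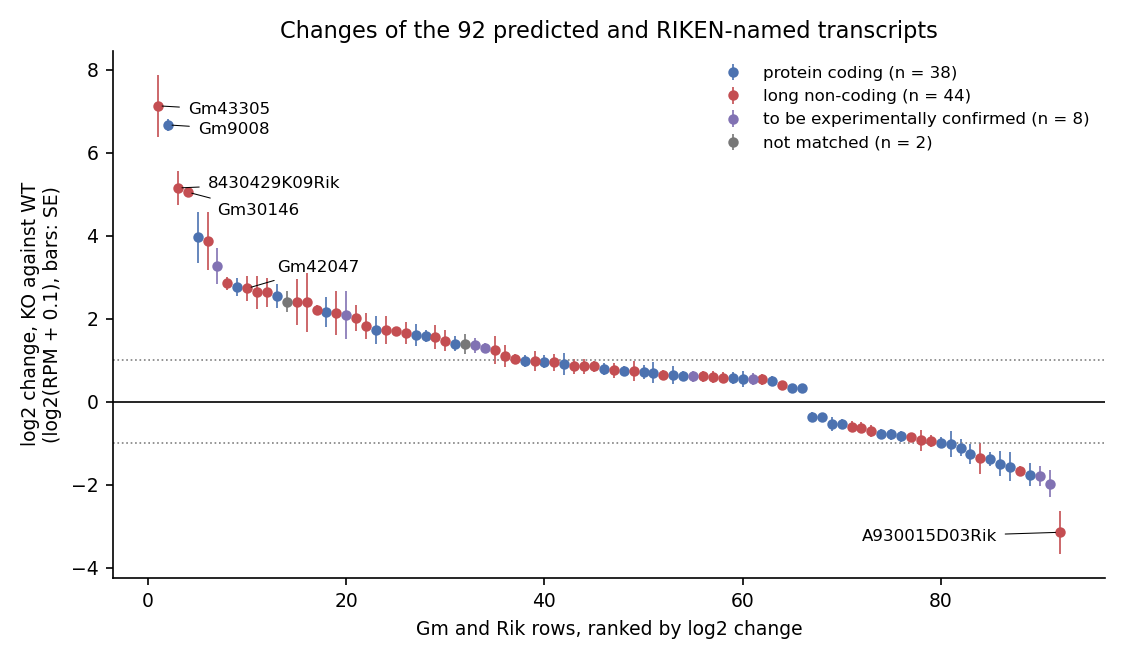
Log2 change in KO against WT of the 92 Gm and Rik transcripts in rank order, coloured by annotated class, with the standard error from limma as bars. The changes run from 7.13 (Gm43305) to -3.15 (A930015D03Rik), with 66 above and 26 below 0, and dotted lines mark a log2 change of 1 and -1.

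GENCODE release M21 (mouse genome build GRCm38) held 90 of the 92, and 87 of these had the same start and end as in the table. By its gene types 44 are long non-coding RNAs, 38 are protein coding and 8 are of the class TEC, single-exon loci with poly(A) evidence that still await experimental evidence of their status. The 2 not found were Gm20499 and 2610524H06Rik. The long non-coding group was made up of 20 lincRNAs (transcripts between genes), 11 processed transcripts, 10 antisense transcripts, 2 sense intronic transcripts and 1 from a bidirectional promoter.

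Among the 44 long non-coding transcripts 35 were higher (79.5%) and 22 rose by at least 1 on the log2 scale, with a median log2 change of 1.00. All 11 processed transcripts were higher, with a median of 1.25 and a smallest change of 0.39, and so were 14 of 20 lincRNAs and 7 of 10 antisense transcripts. The 38 protein-coding members were more balanced, with 23 higher (60.5%) and a median of 0.56. Of the 8 TEC loci 6 were higher. The other rows of the table included 13 long non-coding RNAs with other kinds of names, and all 13 were higher (median 0.83 on the log2 scale), while 662 of 1302 other protein-coding rows were higher (50.8%). The classes also differed in level, with a median of the mean RPM of 7.65 for the 44 long non-coding and 28.2 for the 38 protein-coding members. Among all other rows under 18.5 RPM, 77.03% were higher and 56.1% rose by at least 1. Class and level were not separated here.

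The Gm and Rik transcripts were shorter and had fewer exons. The longest annotated transcript had a median of 2212 bases and 3 exons, against 3109 bases and 8 exons for all rows, and 20 of 90 (22.2%) had 1 exon, against 5.77%. The 20 with 1 exon comprised 16 higher and 4 lower ones. GC content was similar, with medians of 49.4% and 50.4%. A poly(A) signal (AATAAA or ATTAAA) stood in the last 50 bases of 57 of 90 (63.3%), against 76.9% of all rows, and of 7 of the 20 lincRNAs. Across all 1405 rows with a length, Spearman's rho between length and the ratio of KO replicate 1 to KO replicate 3 was -0.49, and for the ratio of WT replicate 1 to WT replicate 3 it was 0.28, so libraries of both groups differed among themselves in step with length. Over the 90 Gm and Rik transcripts these were -0.24 and 0.24, and rho between length and log2 change was 0.04, against -0.22 over all rows. These points share the 6 libraries and are a description only.

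On the log2(RPM + 0.1) scale Gm43305 had the largest change of all 1420 rows, though for Gm9008, which was at 0 in WT, only a lower bound of the fold can be given. It is annotated as a processed transcript without a coding sequence, at chr14:54292443-54297456 on the minus strand (GRCm38). It was measured at 12.7, 1.34 and 2.48 RPM in WT and at 414, 538 and 581 RPM in KO. Each KO library was far above each WT library, while WT replicate 1 was several times higher than the other two WT libraries. The means were 5.50 ± 6.24 RPM and 511 ± 86.7 RPM (SD, n = 3 each), a ratio of 92.9. The log2 change, a difference of mean log values and so not the log of that ratio where the WT libraries are this unequal, was 7.13 (SE 0.75, limma, adjusted p = 0.000766). Without WT replicate 1 the log2 change was 8.04, and without WT replicate 2 it was 6.46. Per kilobase of exon it went from 1.10 to 102 RPM and so passed from below the median of all rows in WT (15.0 RPM) to above their median in KO (15.2 RPM).

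The sequence of this locus is shown because its start and its 3′ end share a stretch that none of the other rows checked had. Promoter windows were taken from RefSeq (GRCm38.p6) as the 250 bases before and 50 bases after the annotated start. All 300 bases of the Gm43305 window recur without a mismatch in the longest annotated transcript (4901 bases, 1 exon), ending 27 bases before its 3′ end. Of the 864 rows whose window shares fewer than 100 bases with their own exons, among them 37 Gm and Rik transcripts, none but Gm43305 repeated even 20 bases of its window in the last 600 bases of the transcript. Direct repeats that flank a transcribed unit are known from long terminal repeat elements of the genome, and a repeat annotation of the locus was not analysed here. The first line gives the window from 40 bases before the start to 50 bases after it (chr14:54297439-54297528, minus strand) and the second the last bases of the transcript (chr14:54292443-54292559, minus strand), with TATAAA and the poly(A) signal AATAAA in capitals.
Gm43305 start: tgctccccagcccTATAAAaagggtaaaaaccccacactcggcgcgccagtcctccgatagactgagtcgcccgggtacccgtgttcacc
Gm43305 transcript end: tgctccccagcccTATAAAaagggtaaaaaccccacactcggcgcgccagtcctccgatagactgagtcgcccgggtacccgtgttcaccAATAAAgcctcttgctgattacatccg

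In the start window TATAAA begins 27 bases before the start. TATAAA on either strand stood in 13.6% of all 32851 RefSeq promoter windows and in 17.6% of the 51 windows of Gm and Rik transcripts. CCAAT and GGGCGG, searched on both strands in the same way, were not in the Gm43305 window, which says nothing of the factors that bind such letters. The repeat touches the measurement as well, because the authors kept uniquely mapped reads and the read length was 50 bases. In the longest transcript 16.4% of windows of 50 bases (taken every 5 bases) also stood in transcripts of 18 other annotated genes. Of these, Apobec3 and Miga1 are rows of the table, with log2 changes of -1.13 and -0.46. Part of the Gm43305 RNA may therefore have been left out or placed elsewhere, and this was not tested.

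5330426L24Rik, a single-exon lincRNA 52006 bases away on the same strand (chr14:54349462-54351636), rose from 2.80, 3.32 and 2.42 RPM to 19.0, 24.7 and 19.5 RPM, with a log2 change of 2.85 (SE 0.16). Abhd4, a lipid hydrolase gene 21806 bases away on the opposite strand, had a log2 change of 0.54. Another 2 rows within 500 kb, Cdh24 and Slc7a8, had log2 changes of -1.02 and -0.72.

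Gm42047 is a lincRNA of 4 exons in its longest transcript, at chr8:121833247-121841178 on the plus strand. It was measured at 34.4, 41.8 and 24.8 RPM in WT and at 148, 223 and 318 RPM in KO. All KO libraries were above all WT libraries, and the KO values spread over a range of more than the whole WT level. The means were 33.7 ± 8.51 and 230 ± 85.1 RPM (SD, n = 3 each), a ratio of 6.83, for a log2 change of 2.73 (SE 0.31, limma, adjusted p = 0.00113). Per kilobase of exon it rose from 5.96 to 40.7 RPM.

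Its transcript has a poly(A) signal near its end, as does that of Gm43305, and most of it is not unique among annotated transcripts. Of its windows of 50 bases, 73.0% also stood in transcripts of 9 other annotated genes, none of which is a row of the table. As only uniquely mapped reads were kept, part of the Gm42047 RNA may have been left out or placed elsewhere, and this was not tested. The level per kilobase given above is divided by all exonic bases, unique or not. The last 50 bases of Gm42047, with ATTAAA in capitals 21 bases before the end, are given here.
Gm42047 transcript end: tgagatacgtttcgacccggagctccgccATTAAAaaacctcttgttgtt

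Gm42047 lies within the span of Gm20388, a readthrough gene model on the same strand that stretches over 4.43 Mb (chr8:119910841-124345722). Gm20388 went the other way, from 203, 192 and 193 RPM in WT to 142, 154 and 161 RPM in KO (log2 change -0.37, SE 0.10). The groups did not overlap. All exonic bases of Gm20388 are also exonic in Galnt2, a glycosyltransferase gene, or Usp10, a deubiquitinase gene, and Galnt2 had nearly the same values (200, 189 and 192 RPM, then 141, 151 and 159 RPM, log2 change -0.37). No exonic base of Gm20388 is shared with Gm42047 or with any other of the 10 rows that lie wholly inside its span. Those 10 rows comprised 4 higher and 6 lower ones, from Gm42047 down to Gm45865 at -1.98. The span therefore joined rows by coordinates that had no measured sequence in common.

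**Figure D3:**
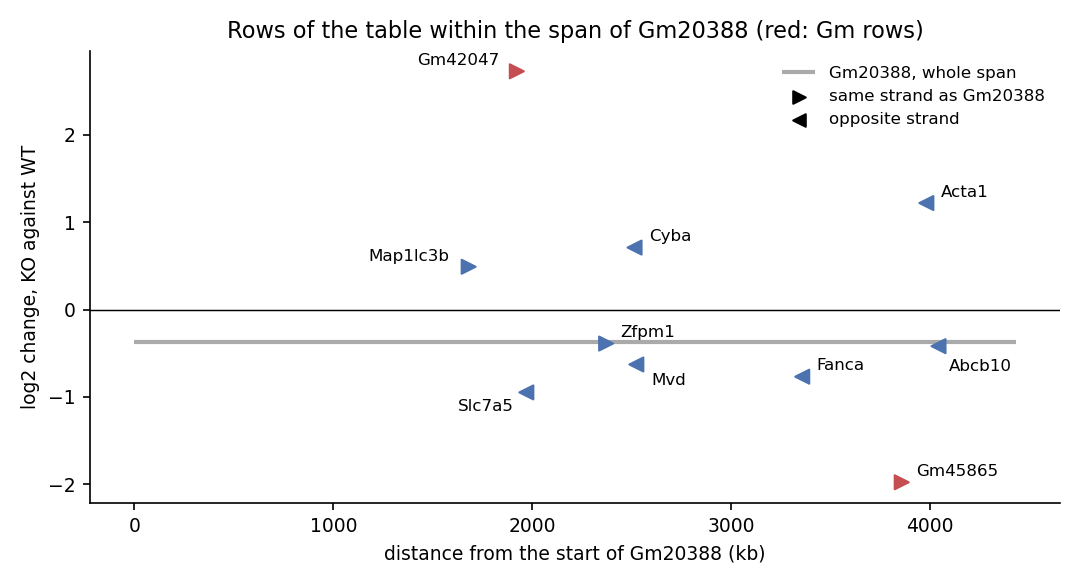
Log2 change in KO against WT (y axis) of the 10 rows that lie inside the span of Gm20388, by distance of their lower coordinate from its start (x axis, kb), with the change of Gm20388 as a grey line and Gm rows in red. Gm42047 (2.73) and Gm45865 (-1.98) are the extremes on the same strand, and rows of both directions are mixed along the span.

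In 4 transcripts there were no more than 3 reads in any WT library. Gm9008 (chr6:76495432-76497784, minus strand) was listed at 0 in all 3 WT libraries and at 9.42, 8.85 and 12.3 RPM in KO, where it was at least 49.2-fold higher than a floor of 3 reads per library. The table describes it as a predicted pseudogene, while GENCODE lists it as a single-exon protein-coding gene. In Gm9008, 63.1% of windows of 50 bases also stood in transcripts of 6 other genes, among them Rnf26, a RING finger gene that is also a row. Gm30146 (chr7:25860140-25869883, plus strand), a lincRNA of 3 exons near the cytochrome genes Cyp2b10 and Cyp2s1, was likewise at 0 in all WT libraries and at 3.06, 3.50 and 3.08 RPM in KO, at least 15.5-fold higher than the floor. None of its windows stood in another gene.

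8430429K09Rik (chr11:3452365-3479831, plus strand), a processed transcript of 2 exons, was measured at 0.233, 0.128 and 0 RPM in WT, which are 5 inferred reads in all, and at 6.92, 7.07 and 6.59 RPM in KO, which are 283 reads. The ratio was 60.1 with an exact 95% counting interval of 25.5 to 187. It starts 2 bases from the start of Rnf185, a ubiquitin ligase gene on the opposite strand that is not among the 1420 rows. Gm13270 (chr2:13271601-13325827, plus strand) was at 0.0777, 0.128 and 0.196 RPM in WT and at 0.966, 0.480 and 2.73 RPM in KO, a ratio of 10.3 from 6 and 58 reads, with an interval of 4.44 to 29.1. The KO values of Gm13270 were above the WT values but differed several-fold among themselves, and without KO replicate 3 its log2 change went from 2.40 to 1.78. The fitted changes of these 4 depend on the pseudocount of 0.1 RPM. So do those of other transcripts with values under 1 RPM in a group, such as Gm5678, Gm12865 and A930015D03Rik below.

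The RefSeq window of 8430429K09Rik is shown because it spans a pair of opposite starts. It holds 1 GGGCGG (read here on the other strand as CCGCCC, in capitals), a motif found in 35.7% of all windows, and no TATAAA or CCAAT. It spans chr11:3452187-3452486 on the plus strand (GRCm38.p6), the first of 3 annotated starts.
8430429K09Rik promoter: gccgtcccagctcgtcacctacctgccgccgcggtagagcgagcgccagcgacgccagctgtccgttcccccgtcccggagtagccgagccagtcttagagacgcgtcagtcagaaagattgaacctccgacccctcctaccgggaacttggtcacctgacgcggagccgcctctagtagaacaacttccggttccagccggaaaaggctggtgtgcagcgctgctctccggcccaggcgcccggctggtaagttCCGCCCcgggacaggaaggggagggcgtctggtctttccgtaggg

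Of all 92, 13 (14.1%) start within 1 kb of the start of a protein-coding gene on the opposite strand, beside 9.86% of all rows, and 9 of these 13 were higher. They include 8430429K09Rik, Gm13270 (186 bases from Rsu1) and 5 more with a log2 change of at least 1 in size that were picked out after their values were seen. Of these, 4921536K21Rik (2.54, 142 bases from Dusp18 at 0.82), D330041H03Rik (2.22, 23 bases from Rnps1 at 1.57), Gm26801 (1.47, 919 bases from Zbtb18) and 2500004C02Rik (1.02, 244 bases from Asxl1) rose, and Gm14230 (-1.37, 115 bases from Tgif2 at -0.45) fell.

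The 8 largest rises among transcripts with a mean of at least 1 RPM and no overlap between the groups were those of Gm43305, Gm9008, 8430429K09Rik, Gm30146, Gm5678, Gm12865, Gm45104 and 5330426L24Rik. Gm5678 (chr16:93628097-93630451, plus strand), a protein-coding model of 3 exons near the carbonyl reductase gene Cbr1, was measured at 0, 0.447 and 0.326 RPM in WT and at 5.39, 3.50 and 4.34 RPM in KO (log2 change 3.96, SE 0.62). Without WT replicate 1 this was 3.2. Cbr1 itself, which shares 5.62% of the windows of Gm5678, had a log2 change of -0.78.

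Gm12865 (chr4:118984058-118997198, minus strand), a lincRNA of 326 bases, was at 0.466, 0 and 0 RPM in WT and at 1.85, 2.20 and 3.92 RPM in KO (log2 change 3.88, SE 0.70, and 4.71 without WT replicate 1). Gm45104 (chr7:18396516-18400865, minus strand), a TEC locus among pregnancy-specific glycoprotein genes, went from 1.24, 0.319 and 0.848 RPM to 5.80, 8.24 and 9.60 RPM (log2 change 3.27, SE 0.43). In each of these the lowest KO library was above the highest WT library. With a fitted trend in transcript length removed, the log2 change was 4.22 in place of 5.05 for Gm30146, 3.28 for Gm5678 and 2.81 for Gm12865, and all 3 still passed (limma). As Gm30146 was at 0 in WT, both of its values rest on the added 0.1 RPM and are no measured fold.

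2610524H06Rik and Gm20499 lie on chromosome 5 (minus strand, 114821935 to 114823468 and 114809036 to 114823460) and share 1526 bases, nearly the whole of the former. 2610524H06Rik was measured at 2.57, 2.04 and 1.83 RPM in WT and at 15.7, 12.2 and 8.34 RPM in KO (log2 change 2.41, SE 0.25). Gm20499 was measured at 1.71, 2.56 and 1.305 RPM in WT and at 5.07, 5.22 and 4.204 RPM in KO (log2 change 1.38, SE 0.24). Both rose, and reads over the shared bases may have counted for both. Gm29650, a lincRNA and the only such transcript on chromosome Y (1048393 to 1049134, plus strand), was at 2.88, 3.38 and 4.11 RPM in WT and at 8.53, 5.77 and 6.17 RPM in KO (log2 change 0.95, SE 0.20), and with a trend in transcript length removed its change was 0.20 and no longer passed (limma, adjusted p = 0.235).

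**Figure D4:**
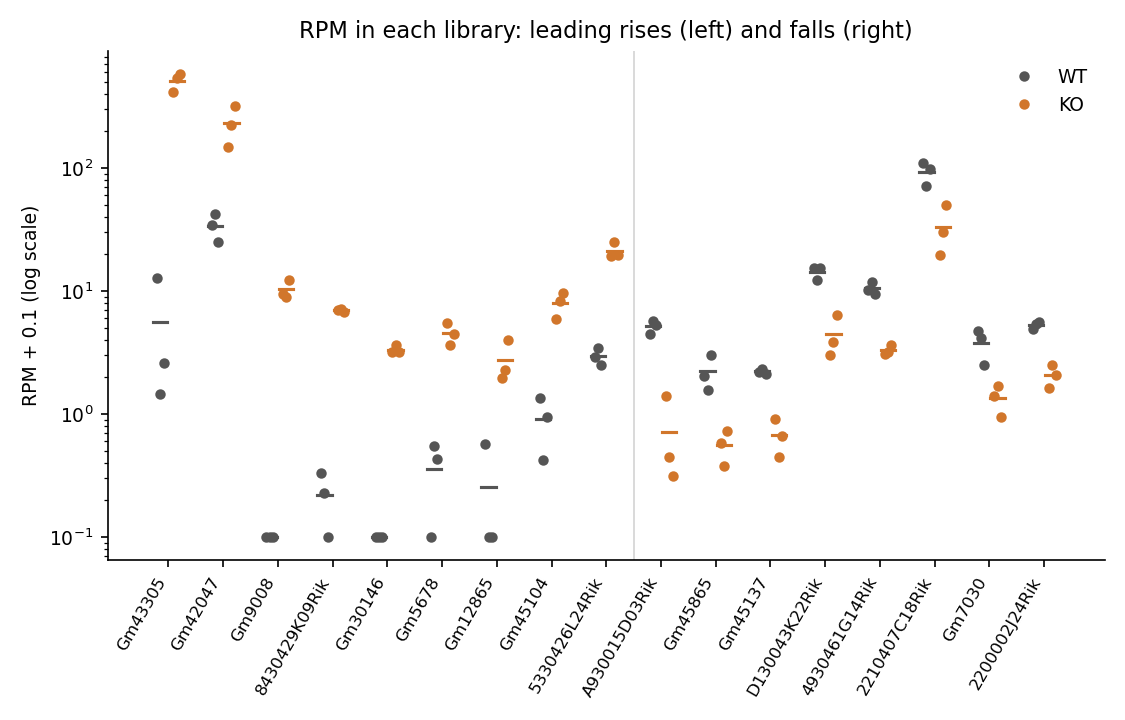
RPM + 0.1 (y axis, log scale) in each of the 3 WT (grey) and 3 KO (orange) libraries for Gm42047 and the 8 largest rises (left of the line) and the 8 largest falls (right), with group means as bars. In all 17 transcripts the WT and KO points are separate, and WT points at 0.1 are values of 0.

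The largest fall was that of A930015D03Rik (chr17:35994453-36038435, plus strand), an antisense transcript in the class I region of the major histocompatibility complex (MHC), which encodes antigen-presenting proteins and their non-classical relatives. It was measured at 4.35, 5.62 and 5.16 RPM in WT and at 1.29, 0.343 and 0.210 RPM in KO. All KO values were below all WT values, and the ratio of the means was 0.122 (log2 change -3.15, SE 0.52, and -3.79 without KO replicate 1).

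Gm45865 (chr8:123767551-123768495, plus strand), a TEC locus inside Gm20388, fell from 1.94, 1.47 and 2.94 RPM to 0.483, 0.275 and 0.631 RPM (log2 change -1.98, SE 0.32). Gm45137 (chr7:121039138-121043552, plus strand), a TEC locus inside Mettl9, fell from 2.10, 2.24 and 2.02 RPM to 0.805, 0.343 and 0.561 RPM (log2 change -1.79, SE 0.25). Both were low in WT as well, under 3 RPM in each library.

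D130043K22Rik (chr13:24845135-24901270, plus strand), the mouse counterpart of the human membrane protein gene KIAA0319, fell from 15.4, 12.1 and 15.3 RPM to 2.90, 3.77 and 6.31 RPM (log2 change -1.76, SE 0.28). 2210407C18Rik (chr11:58608204-58616075, minus strand), a protein-coding gene, was the most abundant of the leading falls at 110, 70.6 and 98.4 RPM in WT and 19.5, 30.2 and 49.5 RPM in KO (log2 change -1.57, SE 0.35). The 3 KO values of 2210407C18Rik spread over a wide range, but the highest was still below the lowest WT value.

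The lincRNA 4930461G14Rik (chr9:58455122-58469635, plus strand) was at 10.1, 11.8 and 9.27 RPM in WT and 2.98, 3.09 and 3.50 RPM in KO (log2 change -1.67, SE 0.13). 2200002J24Rik (chr7:30698926-30700536, plus strand), a small protein-coding gene, went from 4.82, 5.30 and 5.48 RPM to 1.53, 2.40 and 1.96 RPM (log2 change -1.38, SE 0.17). Gm7030 is described with its neighbours in the MHC. With the length trend removed the log2 changes of 6 of these falls were larger in size, at -3.77 for A930015D03Rik, -2.65 for Gm45865, -2.38 for 4930461G14Rik, -2.22 for 2210407C18Rik, -2.20 for 2200002J24Rik and -2.18 for Gm7030.

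The remaining 66 transcripts, which the rule for named genes leaves out, ran from 2.77 to -1.37 on the log2 scale, with 51 higher and 15 lower. The following were picked for their size after their values were seen. The lincRNA Gm16046 rose from 1.48, 1.15 and 0.457 RPM to 4.75, 7.55 and 7.08 RPM (log2 change 2.64), and the lincRNA Gm6329 rose from 1.01, 0.383 and 0.587 RPM to 4.83, 5.63 and 3.08 RPM (also 2.64). At higher level, the processed transcript 2410006H16Rik was at 139, 151 and 155 RPM in WT and at 343, 250 and 174 RPM in KO (log2 change 0.73), with each KO library above the WT range but far from the next. The TEC locus Gm45912 was at 121, 137 and 142 RPM in WT and at 225, 195 and 170 RPM in KO (log2 change 0.55). Both of these kept the groups apart.

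Among the falls outside the rule were the lincRNA Gm14230, from 6.68, 7.66 and 7.90 RPM to 1.45, 3.71 and 4.06 RPM (log2 change -1.37), and 1810046K07Rik, from 7.07, 6.51 and 6.66 RPM to 2.17, 3.57 and 3.71 RPM (-1.11). 4930402H24Rik, a protein-coding gene, fell from 119, 121 and 117.5 RPM to 64.6, 62.3 and 82.96 RPM (-0.78). 1190007I07Rik, next to the DNA repair gene Tdg, fell from 28.0, 32.8 and 36.0 RPM to 16.8, 15.0 and 16.5 RPM (-0.99), and Tdg had a log2 change of -2.69.

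A run of 4 Gm and Rik transcripts lies on chromosome 17, with gaps of 17381, 51348 and 35018 bases, and they went in both directions. From low to high coordinates these are A930015D03Rik, Gm11127, Gm7030 and Gm8909, the last 3 of which are protein-coding class I genes on the minus strand. Gm11127 and Gm8909 fall outside the rule for named genes and were added after their values were seen. Gm7030 (36109719 to 36129425) fell from 4.66, 4.02 and 2.42 RPM to 1.29, 1.58 and 0.841 RPM (log2 change -1.50, SE 0.30). Gm11127 (36055816 to 36058371) rose from 2.25, 2.68 and 2.74 RPM to 8.86, 8.30 and 6.45 RPM (log2 change 1.58, SE 0.15). Gm8909 (36164443 to 36168537) rose from 3.73, 3.07 and 3.46 RPM to 31.4, 24.7 and 17.4 RPM (log2 change 2.77, SE 0.22). The groups did not overlap in any of the 4.

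Gm11127 and Gm7030 have nearly the same promoter sequence although they moved in opposite directions, so both windows are given with that of Gm8909. The windows of Gm11127 and Gm7030 had the same base at 294 of 300 positions (98.0%), while Gm8909 matched them at 24.7% and 25.7% of positions without gaps. Capitals mark the same 3 motifs as above on either strand. Both Gm11127 and Gm7030 hold TATAAA at -25 and -227 from the start, GGGCGG at -205 and CCAAT at -140, and Gm7030 holds a further CCAAT at -168. The windows lie at chr17:36058322-36058621, chr17:36129376-36129675 and chr17:36168488-36168787, all on the minus strand (RefSeq, GRCm38.p6).
Gm11127 promoter: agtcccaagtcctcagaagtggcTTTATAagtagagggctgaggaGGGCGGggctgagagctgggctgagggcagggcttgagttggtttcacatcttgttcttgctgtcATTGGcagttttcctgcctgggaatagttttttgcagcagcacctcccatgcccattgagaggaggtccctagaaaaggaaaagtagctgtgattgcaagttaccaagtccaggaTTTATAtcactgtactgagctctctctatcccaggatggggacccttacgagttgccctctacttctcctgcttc
Gm7030 promoter: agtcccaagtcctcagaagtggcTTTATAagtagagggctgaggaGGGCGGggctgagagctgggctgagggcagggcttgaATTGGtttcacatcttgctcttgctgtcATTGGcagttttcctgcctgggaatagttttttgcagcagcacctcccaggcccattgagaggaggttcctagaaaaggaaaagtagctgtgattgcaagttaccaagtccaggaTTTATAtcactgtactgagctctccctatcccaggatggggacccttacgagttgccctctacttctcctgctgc
Gm8909 promoter: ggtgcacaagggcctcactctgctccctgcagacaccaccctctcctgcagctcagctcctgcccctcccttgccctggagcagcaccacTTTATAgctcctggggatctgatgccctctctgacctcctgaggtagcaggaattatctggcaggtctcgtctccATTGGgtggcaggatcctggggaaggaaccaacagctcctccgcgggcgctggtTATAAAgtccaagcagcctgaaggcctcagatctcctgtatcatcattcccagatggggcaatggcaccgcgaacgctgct

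The class I genes are close copies of each other, and this limits their counts. Of the windows of 50 bases, 66.4% in Gm11127, 60.1% in Gm7030 and 14.1% in Gm8909 also stood in transcripts of other genes elsewhere, and several of these genes (H2-Q1, H2-Q10, H2-Q6, H2-Q7, H2-T22, H2-T23 and H2-T3) are rows of the table. In A930015D03Rik 25.8% of windows also stood in H2-T10 or BC023719, neither of them a row. The share of copied sequence and the level of a copy were not separated here, so the opposite directions of Gm7030 and Gm11127 are uncertain as statements on single genes. Among all 90 with a transcript, 7 (7.78%) shared at least 50% of their windows with other genes, beside 2.21% of all rows. These were Gm42047, Gm9008, Gm11127, Gm7030, Gm13212, Gm10184 and Gm10073. The last pair shared windows with Kpna2, a nuclear import gene, and Rplp1, a ribosomal protein gene, and fell with log2 changes of -0.79 and -1.26.

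Of the 92 transcripts, 21 (22.8%) shared bases of their start-to-end span with another row, in 29 pairs. On the same strand 12 of 14 pairs moved in the same direction, and on opposite strands 9 of 15. Among the 16 pairs of rows without a Gm or Rik transcript 15 moved together, 3 of 3 on the same strand and 12 of 13 on opposite strands. Pairs of 1 locus share a library and often exons and are not independent. Without Gm20388 and the other 11 rows longer than 500 kb, 9 of 9 same-strand pairs and 5 of 9 opposite-strand pairs with such a transcript went together.

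On the same strand 7 of the 14 pairs joined a readthrough model and a gene with which it shares exonic bases. By the annotation 9 of the 92 are readthrough genes, and 7 share at least 50% of their exonic bases with another gene on the same strand. None of these 7 changed by 1 or more on the log2 scale. The highest-level transcript, Gm43738 (chr3:89081939-89101099, minus strand), was at 541, 509 and 623 RPM in WT and 385, 352 and 405 RPM in KO (log2 change -0.55, SE 0.12). Of its exonic bases 97.5% lie in Rusc1 or Fdps, and Fdps, a farnesyl diphosphate synthase of the sterol pathway, was at 674, 631 and 775 RPM and then 488, 447 and 499 RPM (log2 change -0.53). Gm20547 (chr17:34856412-34882042, minus strand), which is wholly made of exons of the complement genes Cfb and C2, was at 278, 277 and 267 RPM in WT and 369, 356 and 313 RPM in KO (log2 change 0.33, SE 0.10). C2 was far lower, at 5.36, 5.88 and 1.63 RPM and then 12.2, 9.40 and 8.97 RPM, with a log2 change of 1.41. The call of Gm20547 was lost when libraries were centred on their median row (limma, adjusted p = 0.068), and also with the length trend removed and without KO replicate 2, WT replicate 1 or WT replicate 3 (limma, adjusted p from 0.0552 to 0.0671).

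The other transcripts of high level were no readthrough models. 4833439L19Rik (chr13:54551218-54565435, minus strand), a protein-coding gene, was at 300, 292 and 289 RPM in WT and 208, 222 and 256 RPM in KO (log2 change -0.37, SE 0.11), a call that was lost without KO replicate 2 or without WT replicate 1 (limma, adjusted p = 0.060 and 0.059). 2210016F16Rik (chr13:58379817-58385225, minus strand), also protein coding, was at 169, 183 and 181 RPM in WT and 316, 274 and 234 RPM in KO (log2 change 0.62, SE 0.13).

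Antisense pairs included opposite movements. A930015D03Rik shares 90.3% of its exonic bases with H2-T22 on the other strand and spans H2-T23, both non-classical class I genes. H2-T22 rose from 16.1, 15.8 and 22.2 RPM to 41.9, 39.4 and 32.2 RPM (log2 change 1.07), and H2-T23 rose from 51.8, 47.1 and 49.5 RPM to 208, 156 and 119 RPM (log2 change 1.66), while A930015D03Rik fell. The libraries keep the strand, but the sources used here do not say that the counting used it. In KO A930015D03Rik was at 1.29, 0.343 and 0.210 RPM, below H2-T22 in each library. Whether reads of such partners were told apart was not tested.

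Gm13270, antisense to Cubn, the gene of the uptake receptor cubilin, shares 368 exonic bases with it, and both rose, with Cubn at 41.6, 35.2 and 22.9 RPM in WT and 96.2, 129 and 115 RPM in KO (log2 change 1.80). Picked out after their values were seen, D330041H03Rik rose from 5.05, 6.07 and 5.22 RPM to 25.4, 25.5 and 26.0 RPM (log2 change 2.22) opposite Abca3, a lipid transporter gene at -0.42, while Rnps1, at its start, rose with it (1.57). Gm15635 rose from 0.622, 0.958 and 0.326 RPM to 2.74, 2.13 and 2.17 RPM (log2 change 1.82) opposite Slco2b1, an organic anion transporter gene at -0.53. Gm11697 and Abca8b rose together (2.14 and 1.75).

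**Figure D5:**
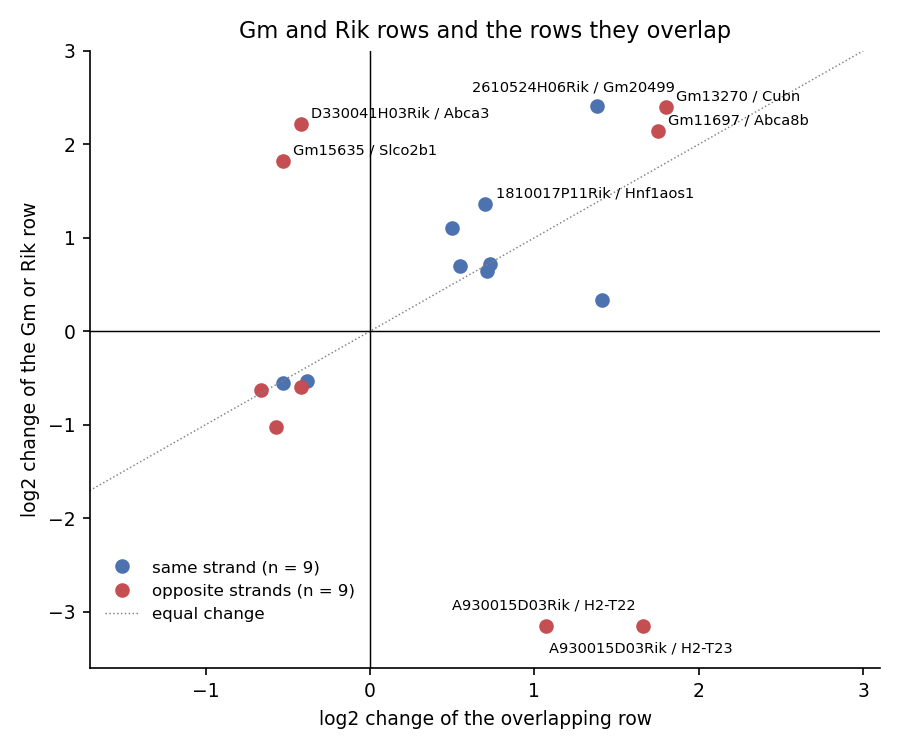
Log2 change of a Gm or Rik row (y axis) and of the row whose span it overlaps (x axis), for 9 pairs on the same strand (blue) and 9 on opposite strands (red), without the pairs of Gm20388. Same-strand pairs lie in the quadrants of equal sign, while A930015D03Rik, D330041H03Rik and Gm15635 lie in the quadrants of opposite sign.

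Within 500 kb of the next Gm or Rik transcript on the chromosome there were 12 pairs, of which 7 moved in the same direction. They include Gm43305 with 5330426L24Rik and 8430429K09Rik with 4921536K21Rik (406257 bases apart, log2 changes 5.15 and 2.54). Among the chromosomes that held at least 1 such transcript, their share of the rows ran from 2.56% on chromosome 3 to 12.1% on chromosome 14, leaving out chromosome Y with 1 of 3 rows. On chromosome 5 all 7 were higher, and on chromosome 9 only 2 of 6. These chromosomes were picked after the counts were seen, and none was lower on chromosomes 4, 6 and 16 either. The share of higher rows among all rows of each chromosome was not counted, so no pattern by chromosome is claimed. The 7 are also not all separate loci, as 2610524H06Rik lies almost wholly in Gm20499.

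Some of the names have since been replaced. By RefSeq synonyms 5 of the 92 now carry a gene symbol, and all 5 were higher in KO with log2 changes from 0.39 to 1.73. These are 5330417C22Rik, now Elapor1 (111 ± 7.13 RPM in WT and 192 ± 26.98 RPM in KO), 8430408G22Rik, now Depp1 (2.42 ± 1.03 and 7.71 ± 0.992 RPM), 4930539E08Rik, now Bnip5 (23.9 ± 4.90 and 45.9 ± 2.61 RPM), 2810474O19Rik, now Resf1 (62.9 ± 3.06 and 88.6 ± 11.2 RPM), and 1810026B05Rik, now Chaserr (61.6 ± 4.18 and 80.5 ± 2.50 RPM, SD, n = 3 each). Resf1 is known as a factor of retroelement silencing, and Chaserr is a long non-coding RNA next to the chromatin remodeller gene Chd2, with which it shares 30.5% of its exonic bases on the same strand.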

How the data were processed

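Organoid RNA was sequenced by the authors as poly(A)-selected, strand-specific libraries with paired 50-base reads. Per the labels and methods, reads were trimmed with Trim Galore 0.4.2 and aligned to GRCm38 with HISAT2 2.0.3, and uniquely mapped reads were counted in SeqMonk over exons of merged transcripts. Whether the counting used strand is not given in the sources used here. The deposited table gives RPM, reads per 1000000 mapped reads, without division by length, for the 1420 transcripts that passed the authors' DESeq2 test. It also holds the authors' corrected p-value (false discovery rate), which was not used.

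Here log2(RPM + 0.1) was fitted with limma 3.58.1 (R 4.3.3) on the 3 WT and 3 KO libraries, with Benjamini-Hochberg adjustment over all 1420 rows and a threshold of 0.05. No count test was run. The test was first run on simulated data of 1420 rows, 200 of them changed 2-fold. All 200 were recovered, and 7 unchanged rows were called. The simulated reads had a fixed spread and none of the length-linked differences seen among these libraries. The error rate in the real libraries was therefore not measured. Fold changes are differences of mean log2(RPM + 0.1), so they can differ from the ratio of the means, and the added 0.1 draws the values of low transcripts together. Depth and read numbers were inferred from the steps between low RPM values (100.0% of 725 to 809 low values per library were whole within 0.02 reads). Higher values were not checked in this way. Intervals cover counting error only. Genes were matched to GENCODE release M21 and RefSeq, whose sequences are printed.

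The members and lists were chosen with earlier results of these data known. Named were Gm43305, Gm42047, the 8 largest rises and falls with a mean of at least 1 RPM and separate groups, the 5 highest levels, transcripts with a group at or under 3 reads per library, those that share bases on a strand with another of the 92, those on chromosome Y, and rows that overlap them. Alternatives were a pseudocount of 1, a filter at the 25th percentile, median centring, an intensity trend, removal of a loess trend in length (span 0.75), a replicate block and each library left out.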

Additional observations from a re-analysis of the deposited data

How the results depend on the processing

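The direction of the 92 transcripts (71.7% higher) was the same without any 1 of the 6 libraries, and with the length trend removed, which leaves the 90 with an annotated length, it was 67.8% (61 higher), with 3 signs changed. This setting moved the median log2 change of all rows from 0.38 to -0.07 and that of the Gm and Rik transcripts from 0.77 to 0.53, with a median shift per row of -0.11. With each library left out in turn, 84 to 91 were called (60 to 65 higher, 24 to 26 lower), while 80.1% to 98.9% of all rows were. In these settings 49 to 54 changed by at least 1 (38 to 40 higher, 10 to 15 lower) and 90 to 92 had separate groups. For comparison, in the main fit 19.0% of all rows rose and 8.10% fell by at least 1. Groups were separate there for 51.3% of all rows as higher and 47.2% as lower, so separate groups describe the list. Without each library in turn, the log2 change was 6.46 to 8.04 for Gm43305, 2.46 to 3.01 for Gm42047 and -2.20 to -2.09 for Smarcad1. The filter at the 25th percentile kept only 33 of these transcripts, so the count fell to 33 called (22 higher, 11 lower). Of these, 5 changed by at least 1 (2 higher, 3 lower) and 31 had separate groups. Of the 1065 rows left 100% were called, 69 higher and 49 lower by at least 1. Among the same rows the groups were separate for 461 higher and 587 lower ones. With the length trend removed 19 fell by at least 1, in place of 12, beside 158 of all 1405 rows (11.2%) in place of 8.10%, and the cause was not tested. Of 268 values for the other 24 named transcripts under all alternatives, 260 kept their side of the threshold, none reversed, and 8 lost the call, for Gm20547, 4833439L19Rik and Gm29650.

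Replicate numbers are shared by WT and KO, but same-numbered libraries did not deviate together (correlations -0.08, 0.09 and 0.06), so they were not taken as pairs. With the replicate number as a block (replicate block), 89 were called, 63 higher and 26 lower, beside 95.1% of all rows. At this depth values under about 0.2 RPM rest on 3 or fewer reads per library. Because the table lists chosen rows, predicted transcripts that did not change are not seen in it.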
